A study of Rattus norvegicus with 24 samples.

Results

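*RT1-A1*, *RT1-A2* and *RT1-Aw2* are class I heavy chain genes of the rat MHC, the RT1 complex. All 10 probes of the custom array that the scan files or the study's list of MHC probes assign to one of these 3 genes were taken, of 8453 distinct probes for 7249 genes. Of them, 5 belong to *RT1-A1*, 1 to *RT1-A2* and 4 to *RT1-Aw2*. The scan files describe the *RT1-A2* transcript as class Ia, but they describe 3 of the *RT1-Aw2* transcripts as class Ib and the other one as a truncated class I antigen, so the name class Ia did not hold for *RT1-Aw2* by this annotation.

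Class Ia molecules are classical transplantation antigens. Their heavy chain pairs with beta-2-microglobulin, carries a peptide cut by the proteasome and pumped into the endoplasmic reticulum by the Tap transporter, and is read by the receptor of CD8-positive T cells. In the rat the class Ia genes lie in the RT1-A region, at the other end of the MHC from the many class Ib genes of the RT1-C/E/M region. Interferons raise the transcription of the heavy chains, of beta-2-microglobulin and of the peptide loading genes. In graft-versus-host reactivity in the skin, class I molecules of the recipient are targets of donor T cells.

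Paw skin of 12 male BN rats aged 15 weeks was cultured for 3 days with lymphocytes that had spent 7 days in a mixed lymphocyte reaction. The allogeneic sample of each rat held lymphocytes of PVG origin, stimulated beforehand against BN cells, and the syngeneic sample held lymphocytes of BN origin. The explants can therefore contain RNA of skin and of added lymphocytes, and in the allogeneic sample of both strains. BN carries the RT1n and PVG the RT1c haplotype, and the custom MHC probes were designed on the BN sequence. In such a mixture fewer cells of a type and less RNA per cell cannot be told apart. Both samples of a rat were hybridised together on 2 arrays with the dyes exchanged, which gave 24 arrays on 3 slides of 4 rats each. Which sample counts as allogeneic was read from the dye labels, and the resulting signs are opposite to those in the study's tables. Array 1 of rat 10 was far brighter than the others, with a median Cy5 intensity of 25600 against 269 to 415 on the other arrays, and the log2 ratios of rat 8 correlated least with those of the other rats (0.0998 to 0.241 over all probes).

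The sequences of the probes set what each of them can detect, and they are shown for that reason. The 5 *RT1-A1* probes were shifted against each other by single bases within a window of 64 bases, and all 5 shared 56 bases, so that they are repeated readings of 1 site. A stretch of that window is printed next to the reverse complement of the reverse primer that the study designed for *RT1-A2*. Capitals mark the base that differs.
RT1-A1 window: catccttgacAcaagtgtggatggcttttt
RT1-A2 primer: ttgacCcaagtgtggatggc
The primer matched the window at 19 of 20 bases, with the substitution C6A (the base in the reverse complement of the primer, the position counted from its 5′ end, and the base in the window). The *RT1-A1* probes were not placed on a chromosome by the scan files. *RT1-A1* probe 5 shared a run of 24 bases, and 47 of 53 aligned bases, with a probe of the class Ib gene *RT1-T24-4*.

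The probe of *RT1-A2* is listed at chr20:5024426-5024485 and the 4 probes of *RT1-Aw2*, named here by their transcripts, lie elsewhere. NM_012645 is listed at chr20:3413267-3413326, AJ004888 at chr20:2870412-2870471 and Y13890 at chr20:5059401-5059470, a span of 70 bases for a probe of 60, whereas M10094 is on an unplaced part of chromosome 20 (all in the rn3 build named by the scan files). The whole probe is shown for *RT1-A2* and Y13890, and 30 bases for the other 3. Capitals mark the longest run shared with a probe of another gene, and in NM_012645 the polyadenylation signal AATAAA.
RT1-A2: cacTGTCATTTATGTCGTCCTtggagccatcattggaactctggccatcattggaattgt
RT1-Aw2 NM_012645: tgtttttgaaaaAATAAAtggcagatggag
RT1-Aw2 Y13890: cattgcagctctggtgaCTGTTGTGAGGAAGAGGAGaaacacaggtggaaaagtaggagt
RT1-Aw2 M10094: gctggggtcatgaaatgaaatgaaatggtt
RT1-Aw2 AJ004888: ccCTTTCCCAGAGATGGGgcaggtacagct
The *RT1-A2* probe shared 18 bases with a probe of *RT1-CE16*, and 47 of 52 aligned bases with a probe of *RT1-CE8*. Y13890 shared 19 bases with probes of *RT1-O2* and *RT1-O3*, and AJ004888 shared 16 bases with a probe of *RT1-CE2*. Among the 8453 probes searched on the same strand, NM_012645 and M10094 shared no run of 14 or more bases with a probe of another gene. The scan files also list the *RT1-A2* transcript among the accessions of the NM_012645 probe. Detection of transcripts of other class I genes by these probes was not tested.

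In the current rat assembly, GRCr8, *RT1-A3*, *RT1-A2* and *RT1-A1* follow each other on chromosome 20, with *RT1-A2* at chr20:4872720-4876425 and *RT1-A1* at chr20:4907139-4910798 and no other protein-coding gene between them. The RefSeq promoter windows of GRCr8, 250 bases before to 50 after the start, were given for *RT1-A1* and *RT1-A2*. They were searched on both strands for the NF-kappaB consensus, which in class I promoters is known as enhancer A, and for TTTCNNTTC, the core of an interferon-stimulated response element. Both genes held both motifs, with 2 overlapping matches to the NF-kappaB consensus, which reads nearly the same on both strands, and TTTCNNTTC on the sense strand. The stretch from the first motif to the second is shown with the matches in capitals.
RT1-A1 chr20:4907083-4907112 (+): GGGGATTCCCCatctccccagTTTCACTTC
RT1-A2 chr20:4872697-4872725 (+): GGGGATTCCCCatcgcccagTTTCACTTC
The NF-kappaB consensus was found in 7.6% of 27457 rat promoters, TTTCNNTTC in 8.43% and both in 129 promoters (0.47%). Both were also present in 8 of the 28 promoters given for the other class I heavy chains on the array, namely those of *RT1-A3*, *RT1-CE4*, *RT1-CE5*, *RT1-CE10*, *RT1-CE11*, *RT1-CE13*, *RT1-CE15* and *RT1-CE16*, and in 1 of the 26 given for the peptide supply, loading, signalling and receptor genes described later, that of *Tapbp*. The windows count from another start than the gene positions above, 70 bases past the listed start of *RT1-A1* and 151 past that of *RT1-A2*, so the end of the stretch shown for *RT1-A2* lies within the gene as listed. These matches describe letters in a window and were not tested for function.

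By the dye labels, *RT1-A1*, the first class Ia gene, was lower in the allogeneic sample of every one of the 12 rats, by a small amount. On the normalized log2 signal scale, on which different probes cannot be set against each other, RT1-A1 probe 1 lay between 15.44 and 15.97 in the allogeneic samples, with a median of 15.84, and between 15.81 and 16.42 in the syngeneic samples, with a median of 16.10. The ranges overlapped, but within each rat the allogeneic sample was the lower one. The log2 ratio of the gene, allogeneic over syngeneic and averaged over its 5 probes, had a lowest value of -0.66 in rat 10, a median of -0.28 and a highest of -0.13 in rat 3. Signs follow the dye labels throughout and are opposite to those in the study's tables. With the sign turned, the same values read as higher in the allogeneic sample. The study also measured selected genes, *RT1-A2* among them, by quantitative PCR. That method does not depend on the array dyes and was not analysed here, so the direction given here rests on the dye labels alone. Which sign is right was not tested. The mean was -0.33 ± 0.18 (SD, n = 12 rats), a 1.26-fold lower signal, with an adjusted p of 0.000699 from limma over all genes. The 5 probes gave means between -0.36 and -0.31, and their log2 ratios correlated at 0.966 to 0.989 across the 12 rats in the 10 pairs of probes, with no test made because they read the same bases. Their agreement is that of repeated spots, not of separate measurements.

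*RT1-A2*, the second class Ia gene, had signals between 11.98 and 14.41 in the allogeneic samples (median 14.11) and between 12.75 and 14.99 in the syngeneic samples (median 14.47) on the same scale. The lower end of each range came from rat 10, whose array 1 was far brighter. The other rats had at least 13.81 and 13.99. Again the ranges overlapped and the allogeneic sample was lower in each of the 12 rats. The log2 ratios ran from -0.77 in rat 10 over a median of -0.36 to -0.15 in rat 3. They averaged -0.41 ± 0.20 (SD, n = 12 rats), a 1.33-fold lower signal (adjusted p = 0.000391 from limma). The 2 rats at the ends of the order, 10 and 3, were also those of *RT1-A1*.

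**Figure D1:**
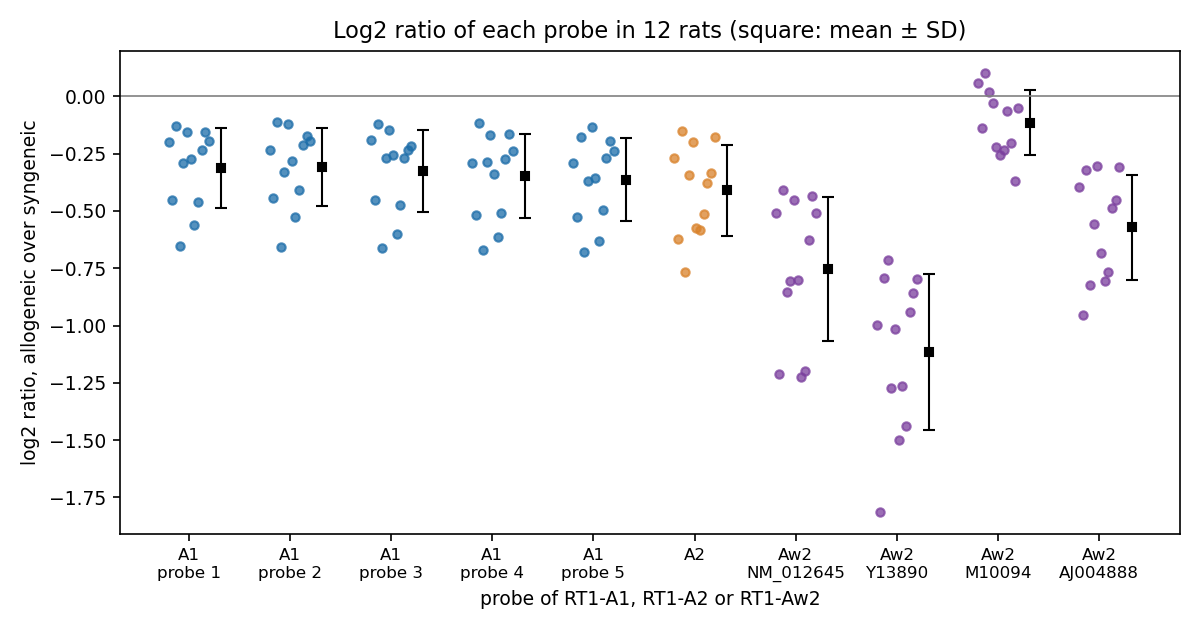
Log2 ratio, allogeneic over syngeneic, of each of the 10 probes, with 1 point per rat and the mean ± SD over 12 rats as a black square. The 5 RT1-A1 probes average between -0.36 and -0.31, and of the 4 RT1-Aw2 probes Y13890 lies lowest at -1.12 and M10094 spreads around 0. Signs follow the dye labels.

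*RT1-Aw2*, with 3 of its 4 transcripts annotated as class Ib, was lower in the allogeneic samples by the largest amount of the 3 genes at the gene level. Its 4 probes did not move together. Probe Y13890 had signals of 11.79 to 12.73 in the allogeneic (median 11.97) and 12.73 to 14.05 in the syngeneic samples (median 13.09). Over all 12 rats it was the only one of the 10 probes whose ranges did not overlap. Its highest allogeneic value, from rat 10, and its lowest syngeneic value round to the same number. Its log2 ratio ran from -1.81 in rat 8 over a median of -1.01 to -0.72 in rat 10, with a mean of -1.12 ± 0.34 (SD, n = 12; adjusted p = 1.9e-05 from limma over probes), a 2.17-fold lower signal. Probe NM_012645 had log2 ratios between -1.22 and -0.41, with a mean of -0.75 ± 0.32 (adjusted p = 0.000142). Probe AJ004888 had log2 ratios between -0.96 and -0.30, with a mean of -0.57 ± 0.23 (adjusted p = 0.000115). Both were below 0 in all 12 rats, and over all 12 rats their signals overlapped between the samples. For NM_012645 that overlap came from rat 10 alone. In the other rats its signals were at most 13.77 in the allogeneic and at least 13.91 in the syngeneic samples. M10094, the probe of the truncated antigen, ran from -0.37 to 0.10 and was below 0 in 9 of 12 rats. Its mean of -0.12 ± 0.14 did not pass the test (adjusted p = 0.0678), and did so only without rat 3 among the rats left out singly (adjusted p = 0.0336).

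The order of the 4 *RT1-Aw2* probes was nearly the same from rat to rat. Y13890 was below NM_012645 in 11 of 12 rats, by 0.37 ± 0.24 on average, and NM_012645 was below AJ004888 in 11 of 12 rats, by 0.18 ± 0.14. AJ004888 was below M10094 in 12 of 12 rats, by 0.46 ± 0.25. The distance between the outer probes, 1.00 ± 0.34 on the log2 scale, exceeded each member's change at the gene level. The gene-level value of *RT1-Aw2*, -0.64 ± 0.21 (SD, n = 12; 1.56-fold; adjusted p = 4.39e-05), is therefore the mean of unequal probes. It was lowest at -1.03 in rat 8, had a median of -0.58 and was highest at -0.36 in rat 3.

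**Figure D2:**
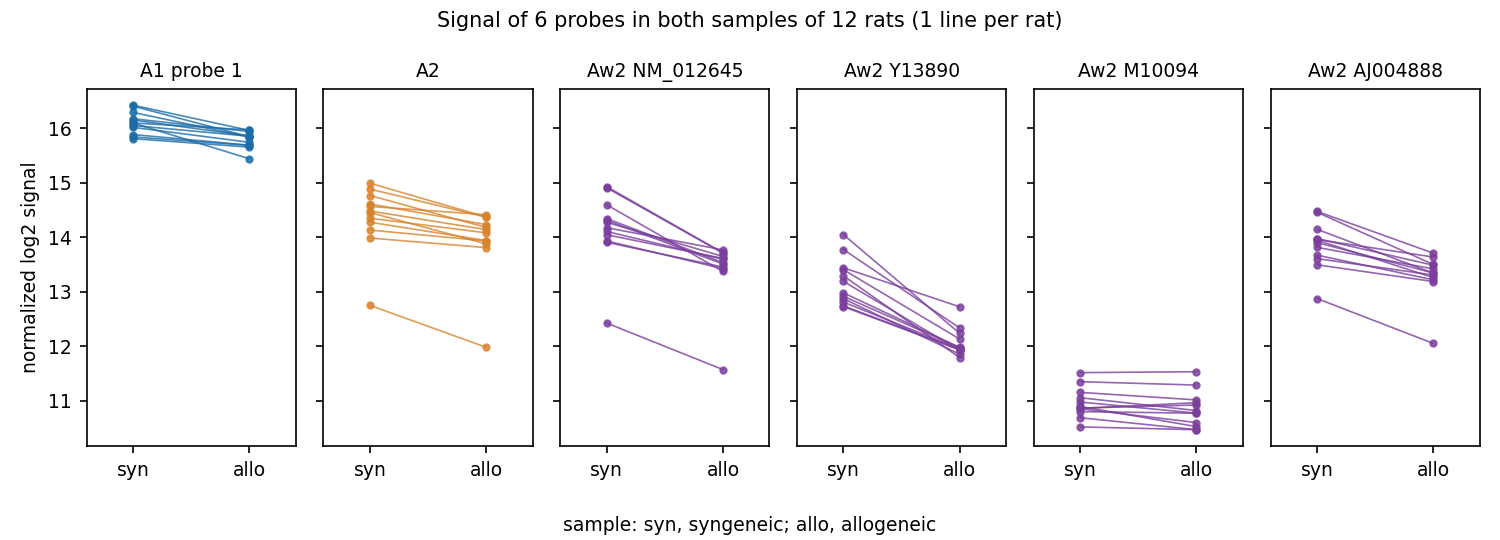
Normalized log2 signal of RT1-A1 probe 1, the RT1-A2 probe and the 4 RT1-Aw2 probes in the syngeneic and allogeneic sample, with 1 line per rat (n = 12). With the samples named by the dye labels, the lines fall in all 12 rats except for M10094, which fell in 9 of 12. The single low line of RT1-A2 is that of rat 10 and starts at 12.75.

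At the probe level 9 of the 10 probes passed the adjusted threshold of 0.05, all of them lower in the allogeneic sample, against 8.48% of the 8453 probes that were called lower. The 9 include the 5 *RT1-A1* probes, which are repeated readings of 1 site. At the gene level the 3 genes were called lower, against 7.56% of the 7249 genes. All 10 probes were well above background in both samples on all 24 arrays and none of their spots was flagged as saturated. The values did not rest on 1 slide: the mean of *RT1-A1* was -0.30, -0.33 and -0.37 on the 3 slides, that of *RT1-A2* -0.35, -0.43 and -0.46, and that of *RT1-Aw2* -0.57, -0.73 and -0.62.

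To see whether the gene-level values of the 3 genes, each the mean of its probes, differed, they were compared within rats. An exact sign-flip permutation test was used, two-sided, with p-values adjusted over the 3 pairs. *RT1-A2* was lower than *RT1-A1* in 10 of 12 rats (mean difference -0.08, 95% interval -0.13 to -0.02; adjusted p = 0.00488). *RT1-Aw2* was lower than *RT1-A1* in 11 of 12 rats (difference -0.31, interval -0.41 to -0.21; adjusted p = 0.00146) and lower than *RT1-A2* in 11 of 12 rats (difference -0.23, interval -0.32 to -0.14; adjusted p = 0.00146). These differences of *RT1-Aw2* hold for the mean of its 4 unequal probes. Its probe M10094, with a mean of -0.12, lay above the means of *RT1-A1* and *RT1-A2*. The difference between the class Ia genes was not firm. It was -0.016 with arrays centred on their medians in place of loess (adjusted p = 0.527), -0.061 when rat 10 was represented by array 2 alone (adjusted p = 0.0508), and of the opposite sign with the allogeneic sample in Cy3. In that orientation the difference between *RT1-Aw2* and *RT1-A1* was also lost, at -0.051 (adjusted p = 0.296), and with median centring it was -0.19 (adjusted p = 0.00952).

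Across the 12 rats the log2 ratios of the members were related. Those of *RT1-A1* and *RT1-A2* correlated with r = 0.904 and rho = 0.923 (permutation p = 5e-05 and 9e-05, adjusted over 3 pairs 0.00015 and 0.00027), and r was 0.851 without rats 2 and 10, the rats farthest from the median. *RT1-A1* and *RT1-Aw2* had r = 0.674 and rho = 0.825 (permutation p = 0.0163 and 0.0017, both also the adjusted values), and r = 0.919 without rats 2 and 10. For *RT1-A2* and *RT1-Aw2* r was 0.751 and rho 0.867 (permutation p = 0.00571 and 0.00056, adjusted 0.00856 and 0.00084), and r was 0.955 without rats 8 and 10. The values of 1 rat come from the same arrays, so the genes share whatever moves an array. Rat 10 stood apart in both comparisons with *RT1-Aw2*. Among single *RT1-Aw2* probes, RT1-A1 probe 1 went with AJ004888 (r = 0.88) and NM_012645 (r = 0.834), and less with Y13890 (r = 0.318) and M10094 (r = -0.0679), given as a description over the same 12 rats.

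**Figure D3:**
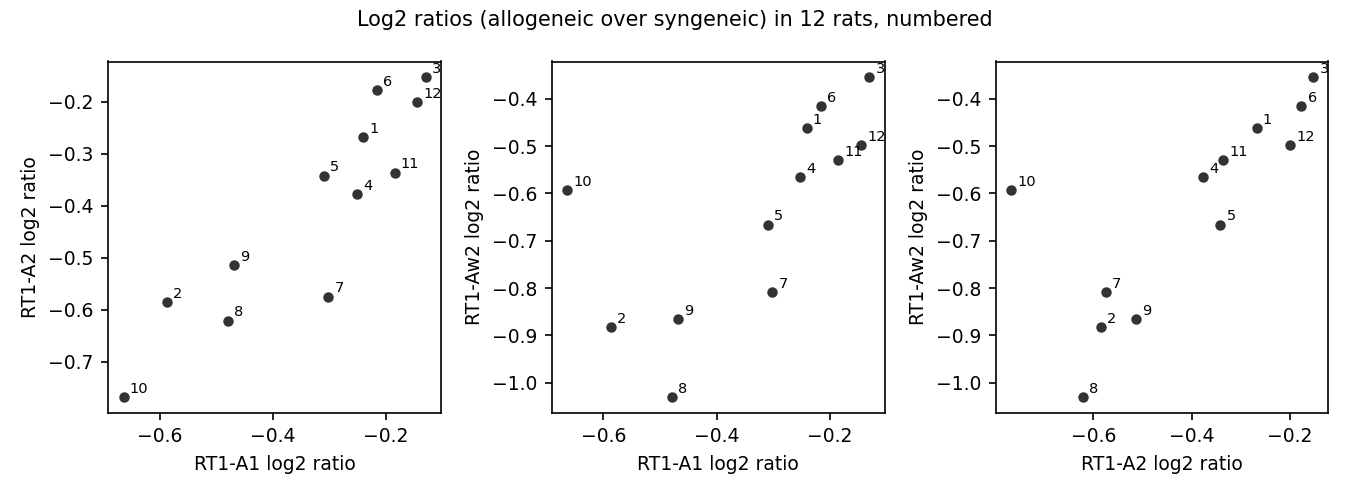
Gene-level log2 ratios, allogeneic over syngeneic, of the 3 pairs of members, with 1 numbered point per rat (n = 12). Rat 10 has the lowest RT1-A1 and RT1-A2 values but lies at -0.59 for RT1-Aw2, away from the line of the other rats.

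The 2 arrays of a rat measure the same RNA with exchanged dyes. *RT1-A1* averaged -0.25 ± 0.26 with the allogeneic sample in Cy5 and -0.42 ± 0.19 with it in Cy3, and was below 0 on 11 and 12 of 12 arrays. The difference of 0.17 ± 0.30 did not pass the exact sign-flip test (adjusted p = 0.0776), but was 0.24 without rat 10 (adjusted p = 0.000977), whose first array gave the lowest of the 24 values. *RT1-A2* went the other way, with -0.57 ± 0.30 in Cy5 and -0.25 ± 0.18 in Cy3, and was below 0 on 12 and 10 arrays (difference -0.33 ± 0.28, lower in 12 of 12 rats; adjusted p = 0.000732). *RT1-Aw2* had -0.81 ± 0.22 and -0.47 ± 0.22, below 0 on all arrays (difference -0.35 ± 0.12; adjusted p = 0.000732). Within *RT1-Aw2*, M10094 changed sign between the orientations, from -0.41 ± 0.19 to 0.18 ± 0.23, whereas AJ004888 was nearly level at -0.61 and -0.54. The neighbouring class Ia gene *RT1-A3* also changed sign, from -0.58 ± 0.36 to 0.26 ± 0.28. The mean of both orientations, in which a dye effect of equal size cancels, is the value given above for each gene. With median centring instead of loess the orientation difference was above 0 for all 3 members, at 1.42, 0.65 and 0.41.

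**Figure D4:**
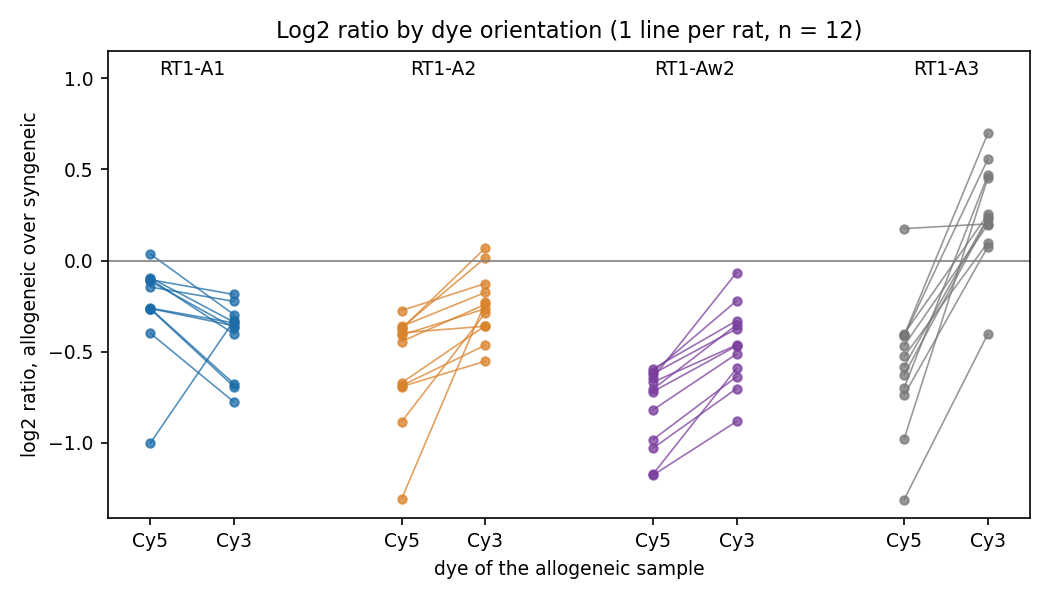
Gene-level log2 ratio with the allogeneic sample in Cy5 and in Cy3 for RT1-A1, RT1-A2, RT1-Aw2 and RT1-A3, with 1 line joining both arrays of a rat (n = 12). RT1-A2 and RT1-Aw2 are lower in the Cy5 orientation in 12 of 12 rats, and RT1-A3 crosses 0.

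Among 51 other class I heavy chains with listed probes, 19 were called lower and none higher, and 32 were not called. Over all 7249 genes, 7.56% were called lower and 8.64% higher. The list had a median log2 ratio of -0.08 against 0.01 over all genes. *RT1-CE10* was lowest at -1.75 ± 0.45 (adjusted p = 5.01e-06), followed by *RT-BM1* at -0.51 ± 0.29 (adjusted p = 0.00105) and *RT1-CE3* at -0.45 ± 0.22 (adjusted p = 0.000391). The highest were *RT1-M8* at 0.04, *RT1-M1-4* and *RT1-M7* at 0.03 each, none of which passed the test. *RT1-A3*, with a single probe, had -0.16 ± 0.27 (adjusted p = 0.164) and ranged from -0.86 in rat 8 to 0.19 in rat 10. Its probe is printed because it matched a probe of *RT1-CE10* at 52 of 57 aligned bases, the shared run of 22 being in capitals.
RT1-A3: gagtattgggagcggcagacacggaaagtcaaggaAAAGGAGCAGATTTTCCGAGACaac
The count of heavy chains called lower was between 14 and 25 under 8 other settings, and up to 2 were called higher under some of them.

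Of 34 genes listed for the supply and loading of peptides, the light chain, transcription and interferon signalling and the CD8 receptor, 26 were measured. Of these, 7 (26.9%) were called lower and none higher, against 7.56% and 8.64% of all genes. Among the proteasome genes, the interferon-inducible catalytic subunits *Psmb8*, *Psmb9* and *Psmb10* were lower by log2 ratios of -0.42 ± 0.25 (adjusted p = 0.00127), -0.19 ± 0.20 (adjusted p = 0.0315) and -0.33 ± 0.29 (adjusted p = 0.0125). The proteasome activator subunits *Psme1* (-0.03) and *Psme2* (-0.11, adjusted p = 0.068) and the aminopeptidase *Lnpep* (-0.04) were not called.

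The transporter subunit *Tap2* was lower at -0.21 ± 0.20 (adjusted p = 0.0213), while *Tap1* had -0.23 ± 0.29 without passing the test (adjusted p = 0.0697). The chaperone *Calr* was called at -0.14 ± 0.16 (adjusted p = 0.0465), and neither the Tap-binding chaperone *Tapbp* (-0.14) nor the disulfide isomerase *Pdia3* (0.04) was. *B2m*, which encodes the light chain of every class I molecule, averaged 0.00 ± 0.55 (adjusted p = 0.994). Its values lay between -0.44 in rat 10 and 1.69 in rat 8, with a median of -0.13, and were below 0 in 10 of 12 rats. Without rat 8 the mean was -0.15, which passed the test (adjusted p = 0.00833). In the same rat 8 the members had their lowest (*RT1-Aw2*) or among their lowest values (*RT1-A1* -0.48, *RT1-A2* -0.62).

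None of the 12 measured genes of transcription and interferon signalling was called. *Jak2*, a kinase of the interferon gamma receptor, averaged 0.27 with rat 8 at 2.47. *Irf1*, a transcription factor of the interferon response, had -0.14 (adjusted p = 0.0557), *Stat2* -0.09, *Rela* -0.06, *Ifng* -0.05, *Ifngr1* -0.05, *Irf9* 0.01, *Jak1* 0.03, *Nfkb1* 0.03, *Ciita* 0.04 and *Rfxank* 0.07. The *Ifng* probe, for interferon gamma itself, was well above background on at most 3 of 24 arrays. The co-receptor genes *Cd8a* (-0.32 ± 0.22; adjusted p = 0.00385) and *Cd8b* (-0.49 ± 0.23; adjusted p = 0.000318) were both lower.

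**Figure D5:**
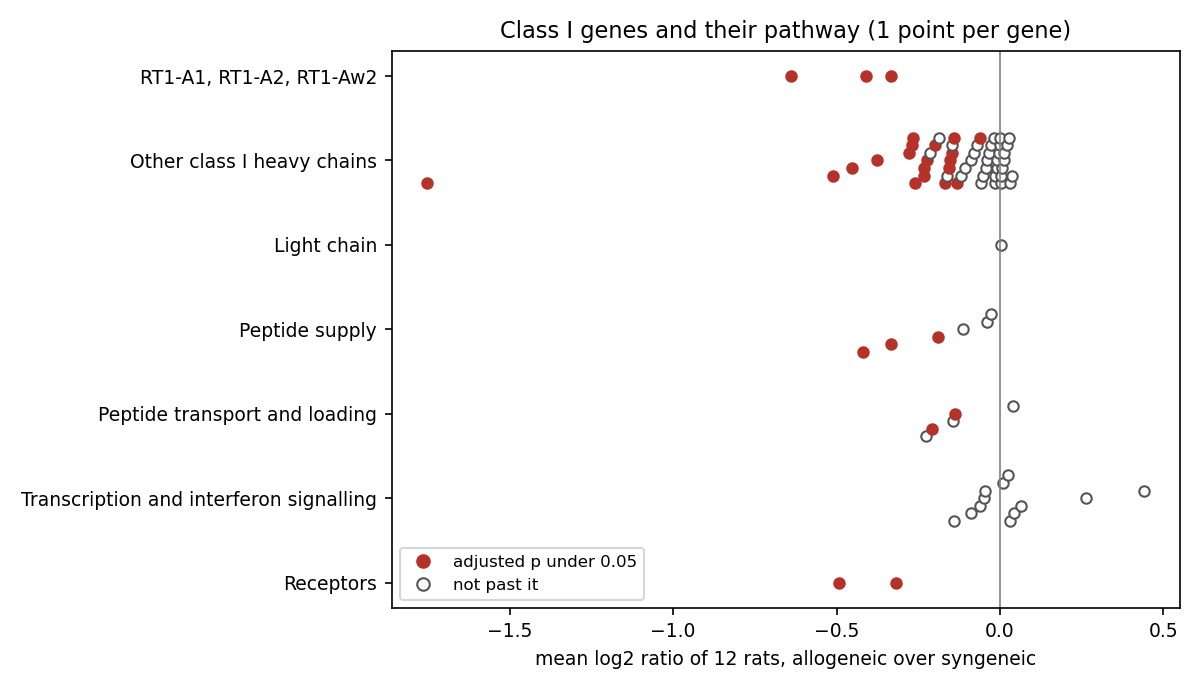
Mean log2 ratio of 12 rats, allogeneic over syngeneic, with 1 point per gene, for RT1-A1, RT1-A2 and RT1-Aw2, the other class I heavy chains and the lists of the class I pathway, filled where the adjusted p from limma is under 0.05. The 3 members and 7 of 26 pathway genes are filled on the lower side, and no filled point lies above 0. Signs follow the dye labels.

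Markers of the cells that the explants can hold moved as well. Their signs also follow the dye labels, whereas the study's array results give *Aif1* as higher in the allogeneic samples. Called lower were 4 of 9 measured T cell markers, 3 of 6 NK cell markers and 3 of 5 markers of macrophages and dendritic cells, and none was called higher, against 7.56% and 8.64% of all genes. The T cell count includes *Cd8a* and *Cd8b*, already counted above. The lists were led by *Cd5* (-0.97 ± 0.84; adjusted p = 0.0115), *Gzmb* (-0.69 ± 0.47; adjusted p = 0.00312) and *Aif1* (-1.27 ± 0.50; adjusted p = 0.000102), with *Zap70* (0.09), *Ncr1* (-0.01) and *Cd14* (0.01) the highest of each list. Neither of the measured B cell markers was called, *Cd79b* having -0.02. The pan-leukocyte gene *Ptprc* averaged -0.78 ± 0.92 (adjusted p = 0.0495). It had -0.80 (adjusted p = 0.0709) without rat 10, -0.98 (adjusted p = 0.00207) without rat 8, where it was 1.37, and -1.01 (adjusted p = 0.00361) without both.

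The mean signal of the T cell list lay between 7.78 and 8.84 in the allogeneic and between 8.00 and 9.15 in the syngeneic samples, and that of the macrophage list between 9.29 and 10.92 and between 9.82 and 11.44. The NK cell list had 7.04 to 7.93 and 7.13 to 8.08. On the skin side, the fibroblast collagen *Col1a2* was higher (0.55 ± 0.40; adjusted p = 0.00433), and 1 of 4 endothelial markers, *Pecam1*, was higher (0.17 ± 0.13; adjusted p = 0.00746), this list running from *Kdr* at 0.02 to *Vwf* at 0.24. The muscle genes *Ckm* (-0.06) and *Acta1* (-0.05) were not called. None of 11 keratinocyte markers had a probe by that name, so the epidermis could not be checked. The part of these cell types in the values of *RT1-A1*, *RT1-A2* and *RT1-Aw2* was not tested.

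The genes whose log2 ratios ran most like those of a member across the 12 rats were sought among 5982 genes above background. For *RT1-A1* the nearest were *RGD1563268_predicted* (r = 0.943, mean log2 ratio -0.01), *RT1-A2* (0.904), *Arid3a_predicted* (0.865), *RT1-M10-4* (0.864) and *RT1-T24-4* (0.864, mean -0.23), the last being the gene whose probe shares 24 bases. For *RT1-A2* they were *Plk3* (0.963, mean -0.51), *RT1-CE2* (0.93), *Or7g23* (0.925), *RT1-CE16* (0.913) and *RT1-A1* (0.904). For *RT1-Aw2* they were *RT1-CE8* (0.979, mean -0.38), *RT1-CE3* (0.959), *Ctsw* (0.944), *RT1-CE9* (0.938) and *Dusp1* (0.916). Over all 12 rats *RT1-A1* and *RT1-A2* were among the 5 nearest of each other, whereas *RT1-Aw2* was in position 164 for *RT1-A1* and 108 for *RT1-A2*. These positions include rat 10, and without the 2 rats left out of each correlation above, r with *RT1-Aw2* was 0.919 for *RT1-A1* and 0.955 for *RT1-A2*. Each r is a description over 12 rats that share arrays.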

How the data were processed

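The authors deposited 24 scanner files of 2-colour intensity values (Feature Extraction 9.5.1.1, per the file headers) and a table of ratios, read as log2, whose base and background treatment are not stated. Its sample titles set stimulated against non-stimulated on every array. The table's columns correlated with the turned log2 ratios of the processed signals at 0.703 to 0.957, their medians were -0.0254 to 0.0221, and their spread (MAD) was 0.673 to 2.01 times that of the ratios computed here. The submitters' processing notes name limma. Mean intensities were corrected with normexp (offset 50) and loess was fitted within arrays in limma 3.58.1 (R 4.3.3). Control spots and outlier spots (161 to 228 per array) were left out. Ratios were turned to allogeneic over syngeneic by the dye labels, and means were taken over spots of a probe, over probes of a gene and then over both arrays of each rat. limma tested the 12 rats against 0, with Benjamini-Hochberg adjustment over 8453 probes or 7249 genes. Signals per sample were scaled between arrays by Aquantile. Sign-flip tests used all 4096 patterns, the smallest p being 0.000488, and permutation p-values of correlations 100000 resamples. The number of rats limits the precision, since both arrays of a rat measure the same RNA. The study's list of MHC probes named 736 probes together with its second list, and RefSeq accessions named 4323 more. All probes of the 3 genes were named. Other genes named were *RT1-A3*, the pathway genes, the 3 lowest and 3 highest heavy chains, the 5 genes most like each member, and the ends of each marker list. The members and lists were chosen with earlier results of these data known. Scripts were tested on simulated data. Alternatives were other background corrections and normalizations, single dye orientations, filters, blocks, tests, the deposited table and leaving out each rat. Explants kept in medium alone were not analysed here. Values of some listed genes are not reported here.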

Additional observations from a re-analysis of the deposited data

How the results depend on the processing

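*RT1-A1*, *RT1-A2* and *RT1-Aw2* kept their direction and their call under all 15 alternatives and with each rat left out, with log2 ratios of -0.51 to -0.25, -0.57 to -0.25 and -0.81 to -0.47. This direction is the one given by the dye labels and is opposite to that in the study's tables. The number of probes called lower was 9 under each of 14 alternatives and 9 to 10 with single rats left out, 10 without rat 3. Among single probes, M10094 was -0.41 (adjusted p = 0.00019) with the allogeneic sample in Cy5 and 0.18 with it in Cy3 (adjusted p = 0.0507), and RT1-A1 probe 5 lost its call in the Cy5 orientation (-0.18, adjusted p = 0.0712). The cause was not tested.

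*RT1-A2* minus *RT1-A1* was -0.016 with median centring, -0.056 (adjusted p = 0.0522) from the deposited table, -0.061 with rat 10 by its array 2, and 0.17 (adjusted p = 0.0132) in the Cy3 orientation, in which *RT1-Aw2* minus *RT1-A1* was -0.051 (adjusted p = 0.296). The orientation differences under median centring were 1.42 for *RT1-A1*, 0.65 for *RT1-A2* and 0.41 for *RT1-Aw2*. That of *RT1-A1* was 0.14 to 0.24 with single rats left out and 0.23 without rats 8 and 10, an alternative chosen after seeing the data. Pathway genes called lower were 13 in the Cy5 orientation and 5 to 9 with single rats left out. Those called higher were 3 in Cy5, 2 in Cy3, 0 to 1 with single rats left out, the 1 being without rat 8, and 1 without rats 8 and 10. Other heavy chains called higher were 1 with processed signals, 2 in Cy5, 2 in Cy3 and 1 with dim probes left out. The cause was not tested. The limma fits have no further block, since each ratio already compares both samples of 1 rat.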
